A study of Caenorhabditis elegans with 2 samples.

Results

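The genes described are the 140 protein-coding genes of Caenorhabditis elegans whose symbol starts with flp-, nlp- or ins- in the Ensembl WBcel235 annotation, out of 19985 protein-coding genes. They comprise 31 flp, 71 nlp and 38 ins genes, chosen by the start of the symbol, with earlier results of these data known. ChIP-seq (chromatin immunoprecipitation followed by sequencing) was done for CEH-9, which is a homeodomain protein, in whole worms of the strain OP202 at the L3 larval stage, both sexes together. The genotype is unc-119(ed3) III; wgIs202, and every sample carried the transgene, 1 line that makes CEH-9 with GFP and FLAG at its C-terminus. Both libraries belong to a single group, biological replicates 1 and 3, with no untagged or untreated group. A free-text label field calls both libraries input, while their antibody and source fields name ceh-9, and they were treated as CEH-9 ChIP. Whole worms mix all tissues, so a site bound in a few neurons cannot be told apart from weak binding in many cells.

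Neuropeptides are cut from precursor proteins, packed into dense-core vesicles and released to act on receptors of other cells. The flp genes encode FMRFamide-like peptides, most of which end in an amidated Arg-Phe. The nlp genes encode a mixed class of other neuropeptide-like proteins, some of them antimicrobial peptides of the epidermis. The ins genes encode insulin-like peptides, several of which act on the insulin receptor DAF-2 as agonists or antagonists. In C. elegans many flp and nlp genes are made in small sets of neurons, and homeodomain proteins are common among the factors that set neuron identity.

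For each gene, the point of strongest signal of a region (its summit) was looked for in a promoter window that reached 1000 bp before and 200 bp past each annotated start. This was done in the authors' list for the pooled replicates (10489 regions) and in the list of each replicate (30000 regions each). The signal value is the caller's own score, with no stated unit, and rank 1 is the strongest region of a list. Lists of this length hold background by design. A q-value under 0.05 was listed for 28 pooled regions, for 3048 in replicate 1 and for 24 in replicate 3. Replicate 1 also held 30 mitochondrial regions, which count in its ranks. Read depth is unknown, so the intervals given here are exact (Clopper-Pearson) 95% intervals for counting genes only.

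Sequences at 6 of the 18 pooled member summits are shown first, to put letters beside the values given below. They are not the 6 strongest. Each is the 201 bases centred on the pooled summit in the RefSeq genome of build WBcel235 (ce11), written 5′ to 3′ on the strand of the gene. The first 3 are the strongest summit of an ins, an nlp and an flp gene among those shown, and the other 3 hold a homeodomain word. Capitals mark the homeodomain words TAATTA and TAATTG or CAATTA, the reverse complement of the latter. The first 3 hold none, so they have no capitals.
ins-39, chrX:1345017-1345217, minus strand: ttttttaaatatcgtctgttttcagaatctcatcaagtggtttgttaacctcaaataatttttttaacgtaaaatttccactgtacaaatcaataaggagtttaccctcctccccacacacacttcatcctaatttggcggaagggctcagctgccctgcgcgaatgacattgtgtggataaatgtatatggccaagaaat
nlp-3, chrX:13178355-13178555, minus strand: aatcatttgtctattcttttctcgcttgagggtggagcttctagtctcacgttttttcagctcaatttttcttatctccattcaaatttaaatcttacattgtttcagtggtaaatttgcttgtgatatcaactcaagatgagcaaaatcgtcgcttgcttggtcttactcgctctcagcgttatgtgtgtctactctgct
flp-19, chrX:10604601-10604801, plus strand: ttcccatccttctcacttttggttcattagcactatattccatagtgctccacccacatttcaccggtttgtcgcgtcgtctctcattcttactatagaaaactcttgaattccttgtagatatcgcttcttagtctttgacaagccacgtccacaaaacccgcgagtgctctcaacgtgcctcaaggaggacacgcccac
flp-14, chrIII:12910567-12910767, plus strand: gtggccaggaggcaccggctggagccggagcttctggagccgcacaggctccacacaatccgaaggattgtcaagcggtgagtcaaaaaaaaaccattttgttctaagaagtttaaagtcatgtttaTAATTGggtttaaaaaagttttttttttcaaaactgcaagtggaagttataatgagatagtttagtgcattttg
nlp-24, chrV:11616273-11616473, plus strand: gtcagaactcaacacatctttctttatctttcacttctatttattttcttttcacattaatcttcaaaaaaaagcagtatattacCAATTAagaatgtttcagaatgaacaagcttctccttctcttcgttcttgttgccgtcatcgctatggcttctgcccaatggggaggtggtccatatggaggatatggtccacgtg
nlp-41, chrII:14550250-14550450, plus strand: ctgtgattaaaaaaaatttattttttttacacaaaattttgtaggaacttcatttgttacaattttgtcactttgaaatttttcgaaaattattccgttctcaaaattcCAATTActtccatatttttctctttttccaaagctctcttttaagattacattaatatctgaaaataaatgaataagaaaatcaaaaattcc

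Peptide gene promoters carried pooled CEH-9 summits about as often as other coding genes. A pooled summit lay in the window of 18 of the 140 genes (12.9%, 95% interval 7.80 to 19.6), against 15.3% of all protein-coding genes. By family these were 5 of 31 flp genes (16.1%, 5.45 to 33.7), 9 of 71 nlp genes (12.7%, 5.96 to 22.7) and 4 of 38 ins genes (10.5%, 2.94 to 24.8). The 3 intervals overlap one another and each includes the background. The 18 genes had 18 different strongest summits. None of the 140 had a summit of the authors' reproducible set, the 45 peaks that passed their threshold of irreproducible discovery rate, where 0.0851% of coding genes had one. None had a pooled region with q under 0.05 either, against 0.0450% of coding genes. With shares this low, 0 of 140 was not distinguishable from the background. Among the 1000 strongest pooled regions were 3 genes, ins-39, nlp-15 and ins-8 (2.14%, against 1.80%).

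**Figure D1:**
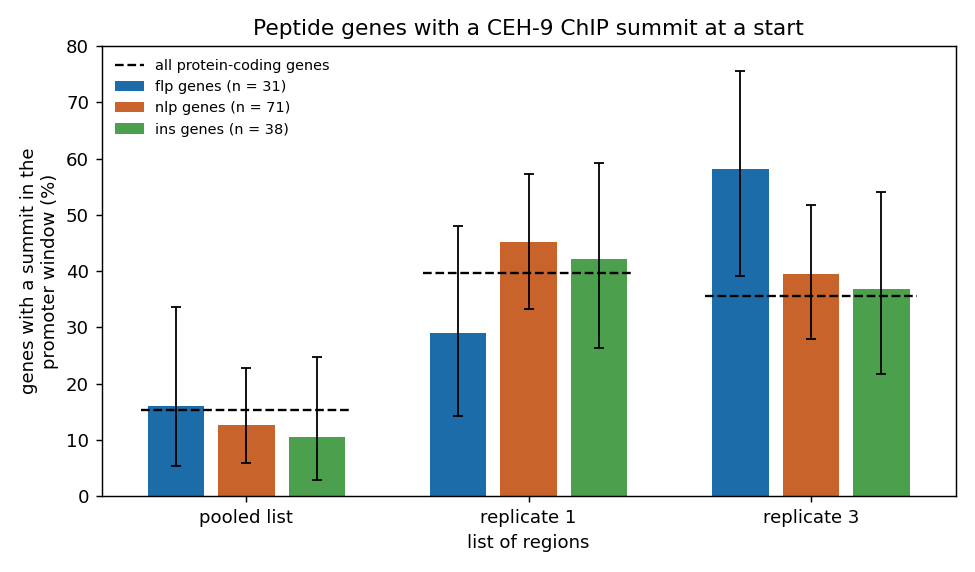
Percentage of flp (n = 31), nlp (n = 71) and ins (n = 38) genes with a summit in the promoter window, for the pooled list and each replicate list. Error bars are exact 95% intervals, and the dashed line is the percentage of all protein-coding genes. In the pooled list the bars lie from 10.5% to 16.1% around a background of 15.3%. In replicate 3 the flp bar is at 58.1%, and in replicate 1 it is at 29.0%.

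The families differed in order between the replicates. In replicate 1, 57 of 140 genes had a summit in the window (40.7%, 32.5 to 49.3), against 39.6% of coding genes. There were 9 flp genes (29.0%, 14.2 to 48.0), 32 nlp genes (45.1%, 33.2 to 57.3) and 16 ins genes (42.1%, 26.3 to 59.2). In replicate 3, 60 genes had a summit (42.9%, 34.5 to 51.5), against 35.5% of coding genes. There were 18 flp genes (58.1%, 39.1 to 75.5), 28 nlp genes (39.4%, 28.0 to 51.7) and 14 ins genes (36.8%, 21.8 to 54.0). The flp genes were thus the lowest family in replicate 1 and the highest in replicate 3, and this difference was not tested. Their interval in replicate 3 lay above the 35.5% of coding genes, and in replicate 1 it included the 39.6%. The 18 flp values of replicate 3 had a median of 6.82 (median rank 11637), where all coding genes with a summit had 6.39 (13736). None was among the 1000 strongest regions of that list, and the strongest, at flp-13, ranked 3054.

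Cutting each replicate list to its 10489 strongest regions, the length of the pooled list, left 4 flp genes in replicate 1 (12.9%, against 16.1% of coding genes) and 6 in replicate 3 (19.4%, against 14.0%). At this length the replicate 1 list, which leaves replicate 3 out, held 7 ins genes (18.4%), where the pooled list held 4, and the replicate 3 list held 4. The mean window length was 1402 bp for flp, 1296 bp for nlp, 1280 bp for ins and 1459 bp for all coding genes. Its part in the shares was not tested.

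Replicate 3 had no region of q under 0.05 at any of the 140 genes, against 0.0300% of coding genes. Replicate 1 had one at 5 genes (3.57%, 1.17 to 8.14), against 5.21%. These 5 were ins-39 (q = 0.00134), nlp-41 (0.00706), nlp-33 (0.0302), nlp-15 (0.0332) and flp-2 (0.0344). Genes with a summit among the 1000 strongest regions numbered 2 in replicate 1, ins-39 and nlp-41 (1.43%, against 1.91%), and 3 in replicate 3, nlp-15, nlp-24 and nlp-53 (2.14%, against 1.40%). No gene was in both of these sets, which hold too few genes to read this as a result. The share of coding genes in both was not counted.

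The insulin-like gene ins-39 (WBGene00017668, chromosome X, 1343758 to 1344421, minus strand) had the highest pooled value of the 140 genes. Its region, from 1344959 to 1345274, had a value of 28.0 at rank 85, with its summit 696 bp upstream of the start and between protein-coding genes. The lowest value in the authors' reproducible set was 30.7. In replicate 1 the strongest region in its window had a value of 19.1 at rank 119. In replicate 3 the window held no summit, and the nearest one lay 1622 bp from the pooled summit. The highest peptide gene of the pooled list thus had a listed summit in replicate 1 and none in replicate 3, whose signal at this place was not analysed here.

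Among the other ins genes, ins-8 (WBGene00002091, chromosome IV, 9680337 to 9680941) had a pooled value of 19.8 at rank 815, with the summit in its own coding exon, 152 bp downstream of the nearest start. Its strongest values were 7.83 (rank 7162) in replicate 1 and 6.46 (rank 13107) in replicate 3. Both replicates thus had a summit at ins-8, each far down its list. At ins-28 (WBGene00002111, chromosome I, 14012369 to 14013629), the pooled value was 16.5 at rank 2434 in its own coding exon. Replicate 3 had 11.3 at rank 1176 and replicate 1 had no summit in the window. Both ins-8 and ins-28 have 2 annotated starts. With the outermost start alone, neither had a pooled summit in the window.

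The summit counted for ins-5 (pooled value 12.8, rank 8043) lay 941 bp upstream of the ins-5 start, within a coding exon of ins-4 and 250 bp downstream of the ins-4 start. It was thus nearer to ins-4, which acts as an agonist of DAF-2, but just outside the downstream edge of its window. The strongest replicate values at ins-5 were 6.97 (rank 9977) in replicate 1 and 7.12 (rank 10210) in replicate 3. Further ins genes were seen in replicates only. In replicate 1, ins-24 had a value of 9.85 (q = 0.0555) and ins-14 had 9.41 (q = 0.0735). In replicate 3, ins-35 had 10.3 (rank 2116) and ins-6, another agonist of DAF-2, had 7.49 (rank 8301).

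Among nlp genes, nlp-15 (WBGene00003753, chromosome I, 12988231 to 12995475) was the highest and was high in each list. Its pooled region, from 12987951 to 12988266, had a value of 22.3 at rank 379, with the summit 122 bp upstream of the start. The values were 11.0 at rank 1972 in replicate 1 and 12.3 at rank 645 in replicate 3, with summits 116 bp apart. It was the only member with summits matched within 200 bp among the 10000 strongest regions of both replicates, against 322 of the 19985 coding genes (1.61%).

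The replicates differed at the next nlp genes. For nlp-3, whose peptides act with serotonin in egg laying, the pooled value was 18.7 at rank 1164, 8 bp upstream of the start. Replicate 1 had 6.95 at rank 10050, and replicate 3 had no summit in the window. For nlp-53 the pooled value was 17.0 at rank 2044, 276 bp upstream, with 6.06 at rank 14214 in replicate 1 and 11.7 at rank 931 in replicate 3. For nlp-41 the order was opposite: 14.4 at rank 496 in replicate 1, no summit in replicate 3, and only 14.1 at rank 5341 in the pooled list.

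Pooled summits lay within 10 bp of the start at nlp-3, nlp-13 and nlp-24, the last an opioid-like peptide gene of feeding. The pooled value of nlp-24 was 12.2 at rank 9573, 3 bp upstream, and its values were 4.44 at rank 25674 in replicate 1 and 11.8 at rank 869 in replicate 3. For nlp-25 the pooled value was 14.6 at rank 4497, in an exon of kcnl-1 outside its coding part, with 9.27 in replicate 3 and no replicate 1 summit in the window. The remaining pooled nlp summits were those of nlp-13 (14.4), nlp-29 and nlp-47 (both 12.6), the last a gene of a peptide related to gonadotropin-releasing hormone. At nlp-33, an antimicrobial peptide gene of the epidermis, replicate 1 had a value of 11.2 and replicate 3 had 8.84, with no pooled summit in the window. These strongest summits were not the same one, and the replicate 1 summit nearest to that of replicate 3, 192 bp away, had a value of 4.57.

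The highest flp value was below the highest nlp and ins values in each of the 3 lists. The highest pooled value was 15.9 at flp-19 (WBGene00001462, chromosome X, 10604686 to 10605831), at rank 2925, with the summit 15 bp downstream of the start in an exon outside the coding part. Replicate 3 had 4.62 there at rank 28256, and replicate 1 had no summit in the window. At flp-25 the summit lay in an intron, 706 bp upstream of the nearest of 2 annotated starts. Its pooled value was 15.0 at rank 3900, with 5.80 in replicate 1 and 8.04 in replicate 3. With the outermost start alone the pooled value was 12.9. At flp-14 the pooled value was 14.6, in an intron 157 bp downstream of the start, with 6.72 in replicate 3 and no replicate 1 summit in the window.

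For flp-17, a gene of BAG sensory neurons whose peptides inhibit egg laying, the pooled value was 12.2 at rank 9576. Replicate 3 had 9.37 at rank 3370, with a summit 7 bp from the pooled one. The replicate 1 summit in its window, at 5.03, was not the same one, since the nearest replicate 1 summit lay 570 bp from the pooled summit. The pooled summit at flp-6 (13.7) had no counterpart in either replicate: the nearest lay 2346 bp away in replicate 1 and 6278 bp away in replicate 3. In replicate 3 alone, flp-13, a sleep-promoting peptide gene, had 9.57 and flp-7, a gene of fat regulation, had 8.67. In replicate 1 alone, flp-2 had 10.8, flp-8 had 8.77 and flp-3 had 7.82.

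**Figure D2:**
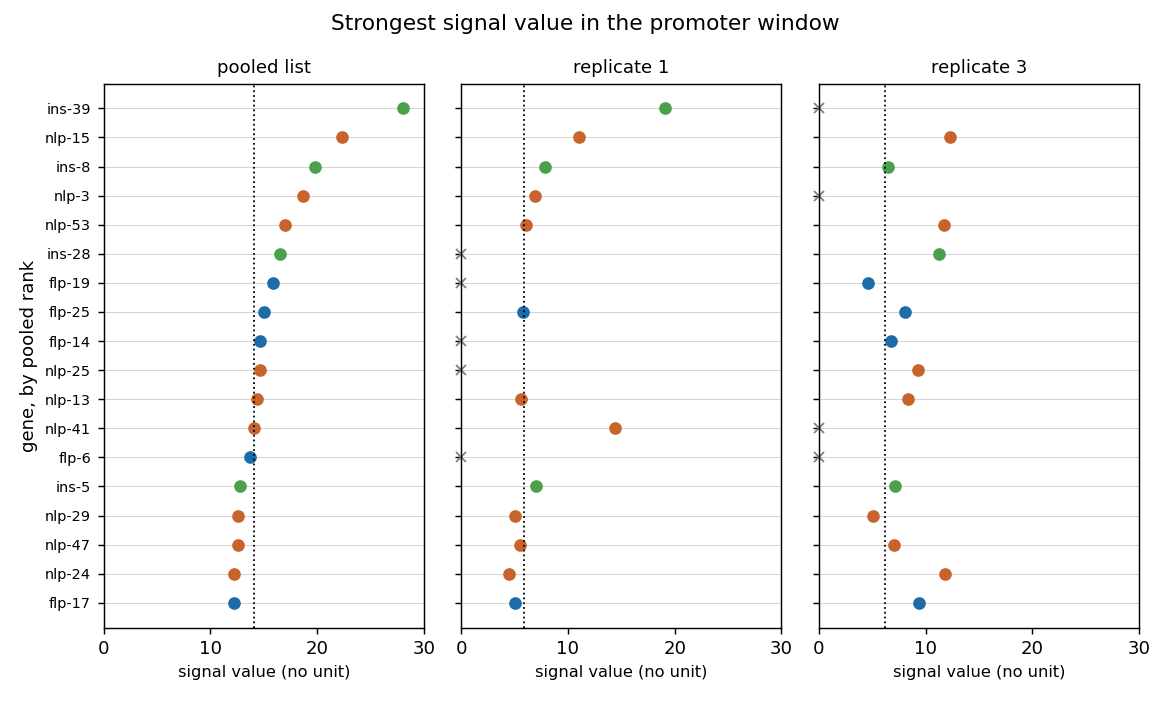
Strongest signal value in the promoter window of the 18 genes with a pooled summit, in the pooled list, replicate 1 and replicate 3, ordered by pooled rank. Blue is flp, orange nlp and green ins, a cross marks no summit in the window, and the dotted line is the median value of all regions of that list. Values are not on one scale between lists. The highest pooled gene, ins-39 at 28.0, has a cross in replicate 3, while nlp-15 lies well above the dotted line in each list.

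The median of the strongest values was close to that of all coding genes with a summit. For members and for all coding genes it was 14.6 and 14.3 in the pooled list, 5.74 and 6.24 in replicate 1, and 6.76 and 6.39 in replicate 3. By family the pooled medians were 14.6 for 5 flp, 14.4 for 9 nlp and 18.1 for 4 ins genes. The ins median rests on 4 genes that range from 12.8 to 28.0. The highest member value was 28.0 in the pooled list, where coding genes reached 72.9, and 12.3 in replicate 3, where they reached 23.8.

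The distance to the start was compared next. The strongest pooled summit was within 200 bp of a start in 12 of 18 genes (66.7%), against 41.2% of the 3065 coding genes with a pooled summit. The shares were 51.7% and 39.8% in replicate 3 but 38.6% and 37.3% in replicate 1, and the difference was not tested. All 9 pooled nlp summits were upstream, at a median of 122 bp, while 2 of 4 ins summits and 3 of 5 flp summits were. The member summits were upstream in 77.8%, and those of all coding genes in 78.4%. Of the 18 summits, 11 lay between protein-coding genes, 3 in exons and 2 in introns of the member itself, and 2 in an exon of another gene. For 17 of the 18, no other coding start was nearer, and no summit lay in the window of another coding gene. Places and nearest starts were not counted for all coding genes, so these counts describe the members only.

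**Figure D3:**
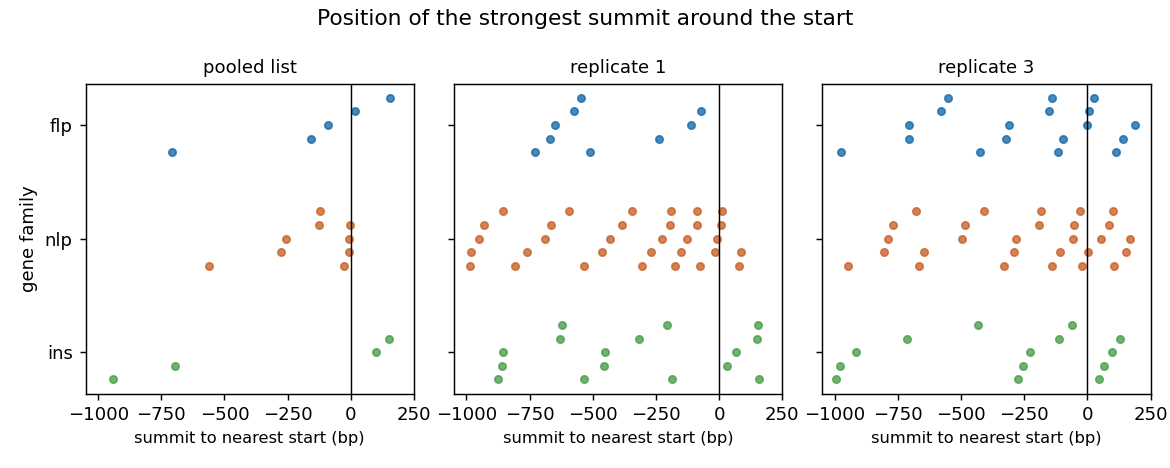
Distance in bp from the strongest summit to the nearest annotated start for each gene with a summit, by family (rows) and list (panels); negative is upstream, and vertical spread within a row only separates points. All 9 nlp points of the pooled list lie upstream of the start, and those of the replicate lists spread across the window.

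Both replicates had a summit at 27 of the 140 genes (19.3%, 13.1 to 26.8), against 17.6% of coding genes. These were 47.4% of the 57 genes of replicate 1, against 44.5% for coding genes, and 45.0% of the 60 of replicate 3, against 49.5%. The flp genes shared least with replicate 3, with 4 of its 18 genes (22.2%), against 53.6% for nlp and 57.1% for ins, on counts too small to order. A summit in all 3 lists was found at 10 genes (7.14%, 3.48 to 12.7), against 8.66%. They were flp-17, flp-25, nlp-13, nlp-15, nlp-24, nlp-29, nlp-47, nlp-53, ins-5 and ins-8. A summit anywhere in the window counted, so this need not be 1 shared site. The pooled summit lay 941 bp from the nearest replicate 3 summit at nlp-13. It lay 732 bp from the nearest replicate 1 summit at nlp-47 and 570 bp at flp-17. Both replicates had a summit within 200 bp of the pooled one at 7 of 18 genes (38.9%), against 41.3% of the 3065 coding genes.

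Summits of both replicates within 200 bp of each other lay at 15 genes (10.7%, 6.12 to 17.1), against 9.0% of coding genes. They were 2 flp genes, 10 nlp genes and 3 ins genes, and 14 different pairs of summits, since nlp-22 and nlp-23 share one. The closest pair was 3 bp apart, at flp-34, with values of only 4.73 and 5.44. Across the 27 genes the strongest values of both replicates gave Spearman's rho of 0.35, and across the 3516 such coding genes 0.08. Genes that share a summit are not independent, and both replicate lists were made against the same control.

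**Figure D4:**
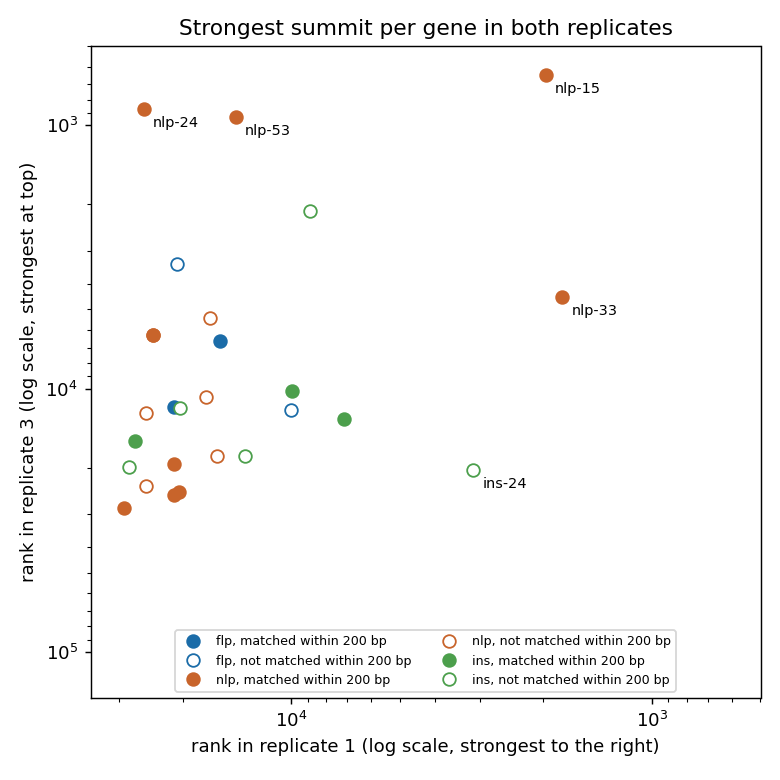
Rank of the strongest summit in replicate 1 and in replicate 3 for the 27 genes with a summit in both, on log axes with rank 1 towards the upper right. Colours give the family, and filled points are genes whose window holds a pair of replicate summits within 200 bp. nlp-15 (ranks 1972 and 645) and nlp-33 (1770 and 4484) lie furthest to the upper right, and nlp-24 and nlp-53 are high in replicate 3 but not in replicate 1. nlp-22 and nlp-23 fall on 1 point.

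The families differ in where they lie in the genome. On chromosome X were 13 of 31 flp genes (41.9%) and 19 of 71 nlp genes (26.8%), but 2 of 38 ins genes (5.26%), against 13.7% of coding genes. The pooled share of flp genes was 7.69% on X (1 of 13) and 22.2% on autosomes (4 of 18), where coding genes had 18.4% and 14.9%. In replicate 3 the flp share was 53.8% on X and 61.1% on autosomes, where coding genes had 36.8% and 35.3%. The high flp share of replicate 3 was therefore seen on both.

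Several genes lie in runs of relatives, whose counts can be read against the 39.6% (replicate 1), 35.5% (replicate 3) and 15.3% (pooled) of all coding genes. The epidermal antimicrobial run nlp-34, nlp-31, nlp-30, nlp-29, nlp-28 and nlp-27 on chromosome V (3978825 to 3989770) had a replicate 1 summit at 5 of 6 genes, from 5.08 at nlp-29 to 6.78 at nlp-27, around the list's median value of 5.91. Replicate 3 had one at 2 of 6, nlp-29 (5.04) and nlp-28 (5.86), and the pooled list at nlp-29 alone (12.6, rank 8382). nlp-31 and nlp-34 share the same summit. The run ins-2 to ins-6 with ins-20 on chromosome II (5988524 to 6011321) had a pooled summit at ins-5 alone, a replicate 1 summit at 1 of 6 genes and a replicate 3 summit at 3. The run ins-13, ins-12 and ins-11, also on II, had replicate 1 summits at each gene (4.79 to 7.90) and none in the other lists. The 7 genes around ins-24 on chromosome I had 4 in replicate 1, 3 in replicate 3 and 1 in the pooled list, and ins-21, ins-22 and ins-23 on III had none.

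No list had a summit in the window of 49 genes (35.0%), where 42.0% of coding genes had none. They were 7 flp genes (flp-1, flp-9, flp-10, flp-20, flp-24, flp-26 and flp-33), 26 nlp genes and 16 ins genes. The ins genes among them include ins-1, ins-4 and ins-37, and the nlp genes include nlp-1, nlp-9 and nlp-36. Some had a pooled summit nearby but outside the window. The nearest lay 229 bp from a start at nlp-1, 250 bp at ins-4, 581 bp at nlp-36 and 821 bp at nlp-9. At ins-1 and ins-37 it lay 1495 and 1562 bp away. Of the 122 genes without a pooled summit in the window, 72 (59.0%) had one within 5 kb of a start, and 59.3% of coding genes did. The median distance to the nearest pooled summit was 3752 bp for members and 3918.5 bp for coding genes without one. A pooled summit elsewhere in the gene body was found at 18 of the 122 (14.8%), against 21.3%.

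Few member summits held a homeodomain word, and how their share compared with all summits depended on the distance searched. TAATTA or TAATTG, counted on both strands within 100 bp, occurred at 4 of 18 pooled member summits (22.2%, 6.41 to 47.6) and at 18.3% of all 10489 pooled summits. The same count, 4 of 18, stood against 9.31% of all summits within 50 bp and 26.5% within 150 bp, inside its wide interval each time. The 4 were flp-14, nlp-15, nlp-24 and nlp-41, each with 1 copy of TAATTG and none of TAATTA, as the capitals in the printed sequences of flp-14, nlp-24 and nlp-41 show. The purine words GAGAAAGA and GAGAGAGA were found at 2 of 18, ins-8 and nlp-47 (11.1%, 1.38 to 34.7), and at 5.85% of all pooled summits. The 201 bases at the member summits had a median GC content of 38.0%, from 22.4% at nlp-41 to 48.3% at ins-28, and all pooled summits had 39.8%.

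Over the whole window of the outermost start (1201 bp), a homeodomain word was present at 30 of 31 flp genes (96.8%, 83.3 to 99.9), 53 of 71 nlp genes (74.6%, 62.9 to 84.2) and 32 of 38 ins genes (84.2%, 68.7 to 94.0). Of all coding genes, 81.0% had one, and the difference between families was not tested. Over the windows of all annotated starts, median GC content was 37.1% for flp, 35.1% for nlp, 34.5% for ins and 35.0% for all coding genes. For genes with several starts this is not the same sequence as the outermost window. The part of base content in the word shares was not tested. A match describes these letters only.

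Other genes of peptide signalling were read from lists made by hand, with earlier results of these data known. Of 13 genes of peptide processing and release, 5 had a pooled summit (38.5%), where 15.3% of coding genes did. This share rests on few genes, and the difference was not tested. The highest was egl-21, which encodes the carboxypeptidase that trims neuropeptide precursors. Its pooled value was 23.5 at rank 280 (q = 0.403), 29 bp upstream of the start. Replicate 1 had 18.0 at rank 163 (q = 0.00134) and replicate 3 had 12.9 at rank 442 (q = 0.366). egl-21 thus ranked high in each list, above nlp-15 in value, but its q was under 0.05 in replicate 1 only. Next were pgal-1 (20.4), an enzyme of peptide amidation, and kpc-1 (14.3), a proprotein convertase, which had no replicate 1 summit. Replicate 1 had a summit at 8 of the 13 (61.5%, against 39.6% of coding genes) and replicate 3 at 7 (53.8%, against 35.5%).

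Of 108 neuropeptide and insulin receptor genes, 19 had a pooled summit (17.6%, against 15.3% of coding genes), 44 a replicate 1 summit (40.7%, against 39.6%) and 35 a replicate 3 summit (32.4%, against 35.5%). These shares were near the background. The highest pooled values were 19.3 at gnrr-6, a receptor gene of the gonadotropin-releasing hormone type, and 18.6 at each of gnrr-7, npr-10 and npr-15 (ranks 1186, 1188 and 1190). Of 7 peptide genes with other names, 3 had a pooled summit (42.9%, against 15.3%), a share that rests on few genes. The highest was capa-1, a neuromedin U-like peptide gene (21.8, rank 444), with 6.18 in replicate 1 and 11.8 in replicate 3. At ntc-1, the nematocin gene of the oxytocin and vasopressin family, the pooled value was 16.5 (5.81 in replicate 1, 5.02 in replicate 3). At pdf-1, the pigment dispersing factor gene, it was 15.7, with 9.91 in replicate 1 and no replicate 3 summit. Replicate 1 had a summit at 3 of the 7 (42.9%, against 39.6%) and replicate 3 at 4 (57.1%, against 35.5%). The insulin-like gene daf-28 had no summit in its window in any list.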

How the data were processed

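CEH-9 ChIP-seq regions from 2 biological replicates of whole L3 larvae were used. Per the deposited file descriptions, the authors called regions and background on each replicate and on the pooled replicates against a control, and derived a reproducible set by irreproducible discovery rate. The deposited signal values (column 7) have no stated scaling and were read only within a list. Column 9 holds q-values on a −log10 scale, per the deposited file descriptions. For the aligner, caller and thresholds, the sources used here give nothing. Only the ce11 lists were used. Starts came from Ensembl release 115.

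Genes were scored with Python 3.11.15, numpy 2.4.6 and scipy 1.17.1, in a window of 1000 bp upstream to 200 bp downstream of any start. The window code was checked on planted summits. No test between libraries or families was made: shares carry exact 95% intervals and stand beside all protein-coding genes. Named genes were the 10 highest pooled members, members with matched summits in all 3 lists, the 3 highest per family and list, members with a pooled or replicate 3 region of q under 0.05 (there were none), and the 3 highest of each pathway list. Other genes are named only as members of a small count or run and were chosen after their values were seen. The members and lists were chosen with earlier results of these data known. Alternatives changed window, start, overlap, threshold, list, matching distance or word distance. The listed symbols flr-2 and rab-2 matched no coding gene in the annotation used and were not analysed here.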

Additional observations from a re-analysis of the deposited data

How the results depend on the processing

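The count of 18 genes with a pooled summit ranged from 12 to 26 with other windows, starts or region overlap, and its share was below that of all coding genes in each (8.57% against 8.98% at the lowest, 18.6% against 24.7% at the highest). With regions of q under 0.05, or with the reproducible set, it was 0 for all genes and for each family. With regions at or above the median signal value it was 11 in all, with 3 flp (9.68%) and 5 nlp genes (7.04%), against 8.21% of coding genes. A window of 500 bp upstream to 100 bp downstream left 3 flp genes (9.68%) and 1 ins gene (2.63%), against 8.98%, and 4 genes with a summit in all 3 lists (2.86%, against 4.01%). With 2000 bp upstream there were 15 nlp genes (21.1%, against 24.7%), and with the outermost start alone 2 ins genes (5.26%, against 12.9%). With replicate 1 left out, the count was 23 (16.4%, above the 14.0% of coding genes). By family it was 6 flp (19.4%), 13 nlp (18.3%) and 4 ins genes (10.5%). With replicate 3 left out, the count was 19 (13.6%, below the 16.1% of coding genes). By family it was 4 flp (12.9%), 8 nlp (11.3%) and 7 ins genes (18.4%). Matched summits numbered 9 within 100 bp (6.43%, against 6.01%) and 22 within 500 bp (15.7%, against 13.1%). Among the strongest 10000 regions of each list they numbered 1 (0.714%, against 1.61%). The homeodomain count was 4 (22.2%) at each distance, against 9.31%, 18.3% and 26.5% of all summits within 50, 100 and 150 bp. Fewer regions, shorter windows or a shorter matching distance lower these counts by construction, and the reverse raises them. For the rest the cause was not tested.

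Assigning summits to the nearest coding start, an alternative chosen after seeing the data, kept 17 of the 18 genes, and ins-5 was lost. For 15 named genes with a pooled summit, the highest value under 4 window settings, also added later, was unchanged in 51 of 60 cases and changed in 1, and 8 left no summit. No paired analysis was possible because there is 1 group. Read depth is unknown, so a missing summit may reflect depth.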
